A study of Rattus norvegicus with 17 samples.

Results

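The GIMAP genes (GTPases of immunity-associated proteins) were followed in CD4+ T cells of rats on diets with different amounts of vitamin D. All 7 genes asked for, Gimap1, Gimap4, Gimap5, Gimap6, Gimap7, Gimap8 and Gimap9, were found by symbol among the 14506 genes that the platform annotation named with a single symbol, each as a single transcript cluster (the probe set of a whole-transcript array). All 7 were bright enough to be among the 10879 genes tested. No other symbol beginning with Gimap was in that annotation. The rule that picks them uses gene symbols.

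Female rats of the inbred Dark agouti strain were immunized with MOG, a myelin protein that induces experimental autoimmune encephalomyelitis, and CD4+ T cells were isolated by FACS from their inguinal nodes 7 days later. All 3 groups were immunized, so the data hold no comparison with unimmunized rats. Feeding began 5 weeks before immunization and went on to the end, with 5 arrays from the deprived diet (0 IU of vitamin D), 6 from the regular diet (2 IU) and 6 from the supplemented diet (10 IU). The labels call the arrays of a diet biological replicates without saying whether each is 1 rat or a pool of rats. The p-values therefore cover only the variation among these arrays.

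GIMAP proteins share a guanine nucleotide binding domain and are made mainly in lymphocytes. The family is known for its part in lymphocyte survival: a frameshift in rat Gimap5 is the lyp mutation of the diabetes-prone BB rat, which has very few peripheral T cells. Gimap1 is needed for the upkeep of mature B and T cells, Gimap4 has been linked to the pace of T cell death, Gimap6 binds a protein of the autophagy machinery, Gimap7 can stimulate GTP hydrolysis by a related family member, and Gimap8 is the largest protein of the group with repeated GTPase domains.

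In the RefSeq gene table for the rat assembly GRCr8 the 7 genes lie next to each other on chromosome 4 in the order Gimap8, Gimap9, Gimap4, Gimap6, Gimap7, Gimap1 and Gimap5. The 250 bases before the annotated start are shown for 4 of them, because they include the gene that moved with both changes of diet (Gimap9) and the gene that passed in no comparison (Gimap6) and yet share a short motif. The capitals mark GGAAGT, the core bound by ETS transcription factors, or its reverse complement. Each sequence runs 5′ to 3′ on the strand of its gene and comes from RefSeq, build GRCr8: Gimap9 at chr4:78957201-78957450 (plus strand), Gimap1 at chr4:79018223-79018472 (plus), Gimap4 at chr4:78967047-78967296 (plus) and Gimap6 at chr4:78990007-78990256 (minus).
Gimap9: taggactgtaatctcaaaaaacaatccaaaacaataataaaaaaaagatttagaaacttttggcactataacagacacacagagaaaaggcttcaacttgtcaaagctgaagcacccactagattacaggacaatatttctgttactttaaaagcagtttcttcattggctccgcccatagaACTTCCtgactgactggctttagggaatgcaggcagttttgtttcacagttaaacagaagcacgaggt
Gimap1: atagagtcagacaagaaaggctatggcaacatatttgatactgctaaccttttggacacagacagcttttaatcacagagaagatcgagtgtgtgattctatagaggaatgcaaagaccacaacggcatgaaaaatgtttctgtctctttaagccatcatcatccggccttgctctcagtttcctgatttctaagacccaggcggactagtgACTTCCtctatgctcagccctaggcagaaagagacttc
Gimap4: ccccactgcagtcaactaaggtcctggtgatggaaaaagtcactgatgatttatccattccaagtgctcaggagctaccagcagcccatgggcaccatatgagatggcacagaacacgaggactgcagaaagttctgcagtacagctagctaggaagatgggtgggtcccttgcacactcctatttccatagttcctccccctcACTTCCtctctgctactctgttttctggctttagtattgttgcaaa
Gimap6: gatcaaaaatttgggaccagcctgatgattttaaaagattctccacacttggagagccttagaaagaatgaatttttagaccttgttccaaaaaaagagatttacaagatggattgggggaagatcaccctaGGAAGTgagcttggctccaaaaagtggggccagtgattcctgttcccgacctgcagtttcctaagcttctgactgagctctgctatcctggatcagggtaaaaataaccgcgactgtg

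GGAAGT was present on either strand in these 4 of the 7 GIMAP windows, and in 19.2% of the 33469 windows of the same length in the table. Counted back from the annotated start, the motif ended at position -63 in Gimap9, -33 in Gimap1, -41 in Gimap4 and -113 in Gimap6. TGTGGT, a RUNX core, was in 2 of 7 (Gimap1 and Gimap8; 14.5% of all windows), CTTTGA, a TCF core, in 1 of 7 (Gimap9; 13.9%) and TGGGAA, an Ikaros core, in 0 of 7 (22.1%). Direct repeats of GGTCA and of GTTCA, each with a spacer of 4 bases as in elements read by the vitamin D receptor, were in 0 of 7 and in 0.0717% and 0.0837% of all windows. Both strands were searched, TGGGAA and GGAAGT share the letters GGAA, and the motifs were chosen after the sequences had been seen. A match or its lack describes letters in this window and says nothing of binding. For Gimap5 and Gimap8 the window in the table does not begin at the edge of the gene model.

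All arrays were compared on the authors' log2 values, where a difference of 1 is a 2-fold change. Supplemented arrays had less spread-out values: the SD of an array over all its transcript clusters, called array spread here, was 1.908 to 1.972 on supplemented arrays, 2.001 to 2.063 on regular arrays and 2.027 to 2.073 on deprived arrays. Across the tested genes, the difference between supplemented and regular diet went with the level of the gene (r = -0.505 over genes, which are not independent replicates), so that bright genes were lower. All GIMAP genes are fairly bright, from the 78.7th percentile of tested genes for Gimap5 to the 99.3rd for Gimap4. These facts stand beside each GIMAP result below. As bulk samples, the arrays do not tell fewer cells of a type apart from less RNA per cell.

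The first comparison was of 10 IU with 2 IU. GIMAP transcripts were less abundant on the supplemented diet: 4 of 7 passed the test as lower (Gimap1, Gimap4, Gimap7 and Gimap9), 0 as higher, and 3 did not pass, where 22.9% of all tested genes passed as lower and 10.8% as higher (limma, Benjamini-Hochberg adjusted p below 0.05 over all genes). The median of the 7 differences was -0.22 and that of all tested genes 0.00061. The 1630 tested genes with a mean log2 level above 9, which include 5 of the GIMAP genes, had a median of -0.22 as well. The differences were small, from -0.35 for Gimap1 to -0.07 for Gimap6.

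Gimap1 had the largest of them. Its log2 level ran from 9.12 to 9.30 (median 9.16) on the regular arrays and from 8.59 to 8.99 (median 8.86) on the supplemented arrays. All 6 supplemented arrays lay below all 6 regular ones, and Gimap1 fell by 0.35 on the log2 scale (SE 0.07, adjusted p = 0.00061), a level 21.5% lower. The deprived arrays were at 9.13, 9.39, 9.11, 9.10 and 9.12, within or just under the regular range apart from replicate 3.

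Gimap7 was at 11.68 to 11.80 (median 11.73) on the regular diet and at 11.42 to 11.62 (median 11.49) on the supplemented diet. These groups did not overlap, and Gimap7 fell by 0.22 (SE 0.05, adjusted p = 0.0037), or 14.2%. Gimap1 and Gimap7 were thus 2 of 7 members with every supplemented array below every regular array, against 9.92% of the tested genes. That share is over genes of all levels, and no share among genes as bright as the members was counted. Gimap7 also varied little, with an SD within diets at percentile 2.03 of the tested genes. The deprived arrays read 11.71, 11.81, 11.70, 11.63 and 11.67 for Gimap7 and overlapped the regular ones.

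Gimap4 stepped down from the deprived to the supplemented diet. Its deprived arrays were at 12.01, 12.02, 12.00, 11.95 and 11.96, the regular ones at 11.81 to 11.94 (median 11.91) and the supplemented ones at 11.55 to 11.83 (median 11.69). Supplemented and regular arrays overlapped through 1 array only, and Gimap4 fell by 0.20 (SE 0.05, adjusted p = 0.0064), or 12.9%. Every deprived array lay above every regular array, but the difference of 0.09 did not pass (SE 0.06, 95% interval -0.02 to 0.21, adjusted p = 0.41).

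**Figure D1:**
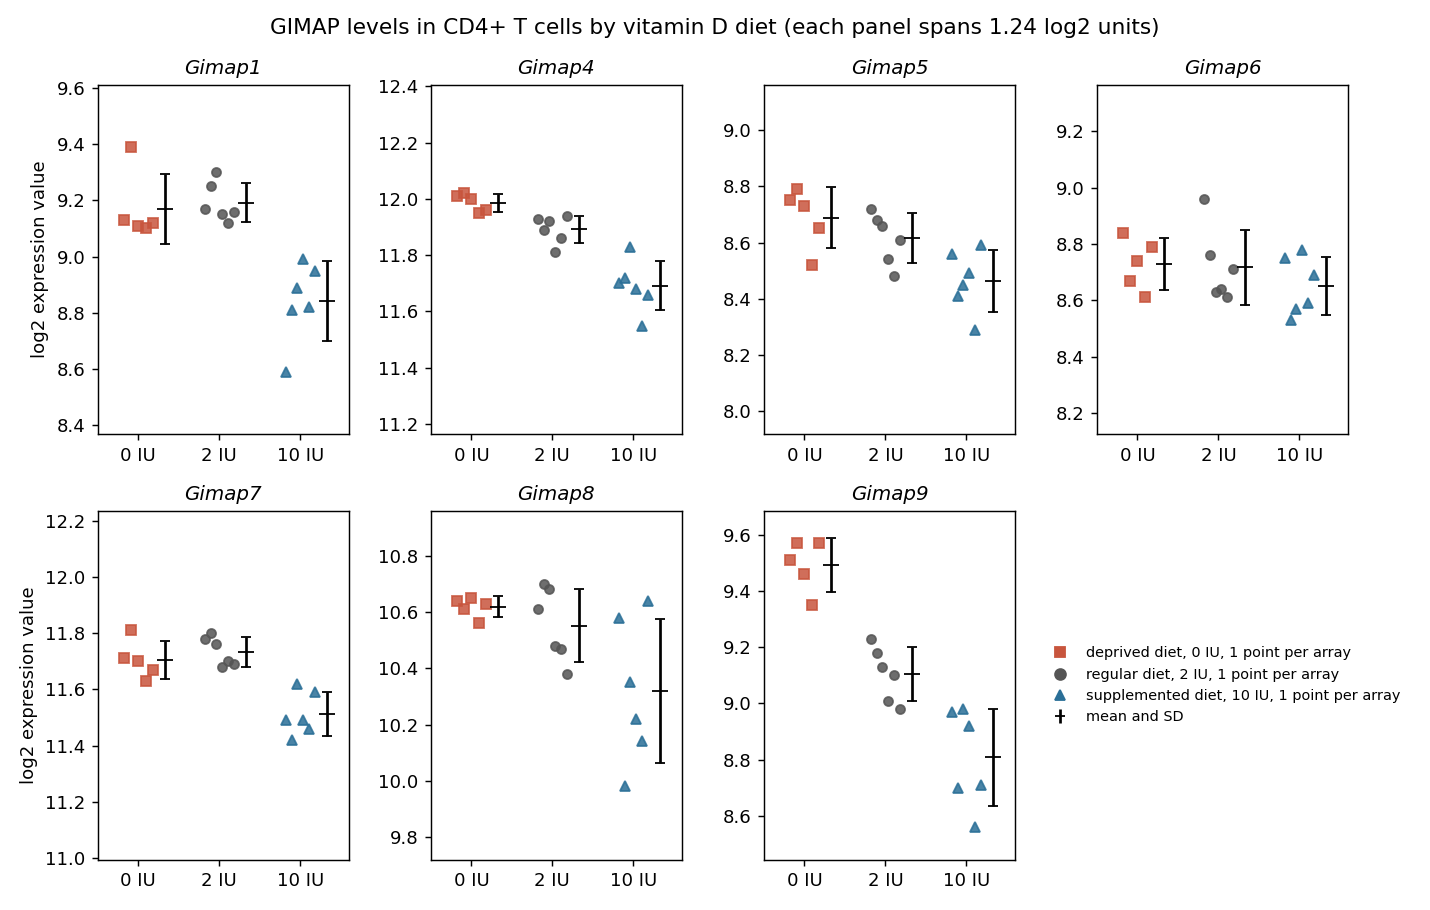
Log2 expression value of each GIMAP gene (vertical axis, every panel with the same height in log2 units) on the deprived (0 IU, 5 arrays), regular (2 IU, 6 arrays) and supplemented (10 IU, 6 arrays) diet; each point is 1 array, and the bar beside it gives mean and SD. Gimap9 descends in clear steps over the 3 diets, from a mean of 9.49 to 9.11 and 8.81, while the groups of Gimap6 lie over each other at 8.73, 8.72 and 8.65.

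Gimap9 differed from the others in that it moved with both changes of diet. The deprived arrays read 9.51, 9.57, 9.46, 9.35 and 9.57, the regular ones 8.98 to 9.23 (median 9.12) and the supplemented ones 8.56 to 8.98 (median 8.81). All 5 deprived arrays lay above all 6 regular arrays, and 5 of the 6 supplemented arrays lay below all regular ones, the remaining one at the level of the lowest regular array. Gimap9 rose by 0.39 in deprived against regular rats (SE 0.08, adjusted p = 0.017), a level 30.7% higher, and fell by 0.30 in supplemented against regular rats (SE 0.07, adjusted p = 0.0040), a level 18.6% lower. The 2 differences share the 6 regular arrays. Between the extremes of the diet the gap was -0.68 (SE 0.08, adjusted p = 9.7e-07), or 37.7%.

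The remaining 3 members did not pass between supplemented and regular diet. Gimap8 was at 10.38 to 10.70 (median 10.54) on the regular diet and spread widely on the supplemented one, from 9.98 to 10.64 (median 10.29), with a difference of -0.23 (SE 0.09, 95% interval -0.42 to -0.04, adjusted p = 0.053). Gimap5 was at 8.48 to 8.72 (median 8.63) and 8.29 to 8.59 (median 8.47), with a difference of -0.15 (SE 0.06, 95% interval -0.29 to -0.02, adjusted p = 0.075). Both groups of arrays overlapped in each of these genes. Gimap6 was at 8.61 to 8.96 (median 8.68) and 8.53 to 8.78 (median 8.64). Its difference of -0.07 (SE 0.07, adjusted p = 0.46) had a 95% interval of -0.21 to 0.08.

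Deprivation against the regular diet gave a call for 1 of 7 members, Gimap9, where 1.49% of the tested genes passed as higher and 0.184% as lower. Besides Gimap9, 4 members were above the regular mean and 2 below it, from 0.09 for Gimap4 to -0.03 for Gimap7, and none of these 6 passed. Gimap5, the gene of the lyp mutation, was at 8.75, 8.79, 8.73, 8.52 and 8.65 on the deprived arrays (difference 0.07, SE 0.07, adjusted p = 0.64). Gimap8 was at 10.64, 10.61, 10.65, 10.56 and 10.63 (0.07, SE 0.10, adjusted p = 0.78), and Gimap6 at 8.84, 8.67, 8.74, 8.61 and 8.79 (0.01, SE 0.07, adjusted p = 0.96). In each of these the deprived arrays overlapped the regular ones. The groups did not overlap in 2 of 7 members, Gimap4 and Gimap9, with deprived arrays higher, against 4.52% of all tested genes, dim ones included. The SD of Gimap4 within diets was at percentile 1.28 of the tested genes.

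More members passed between supplemented and deprived diets than in the other comparisons. All 7 members were lower on the supplemented diet and 6 passed, where 28.6% of the tested genes passed as lower and 18.6% as higher. Only Gimap6 did not pass (-0.08, SE 0.07, limma adjusted p = 0.38). For Gimap1 and Gimap7 the gap to the regular diet was the larger one (-0.35 and -0.22). Gimap5 (-0.22, SE 0.07, adjusted p = 0.010) and Gimap8 (-0.30, SE 0.10, adjusted p = 0.014) passed here, although their arrays overlapped. Gimap1 (-0.33), Gimap4 (-0.29), Gimap7 (-0.19) and Gimap9 did not overlap between these diets, which makes 4 of 7 members against 17.7% of the tested genes. Here too the share is over genes of all levels, with none counted among genes as bright as the members. The median over the members was -0.29, the same to 2 decimals as that of the tested genes above a level of 9. In the moderated F test over the 3 diets 6 of 7 members passed, again without Gimap6 (adjusted p = 0.57), where 45.3% of the tested genes passed.

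**Figure D2:**
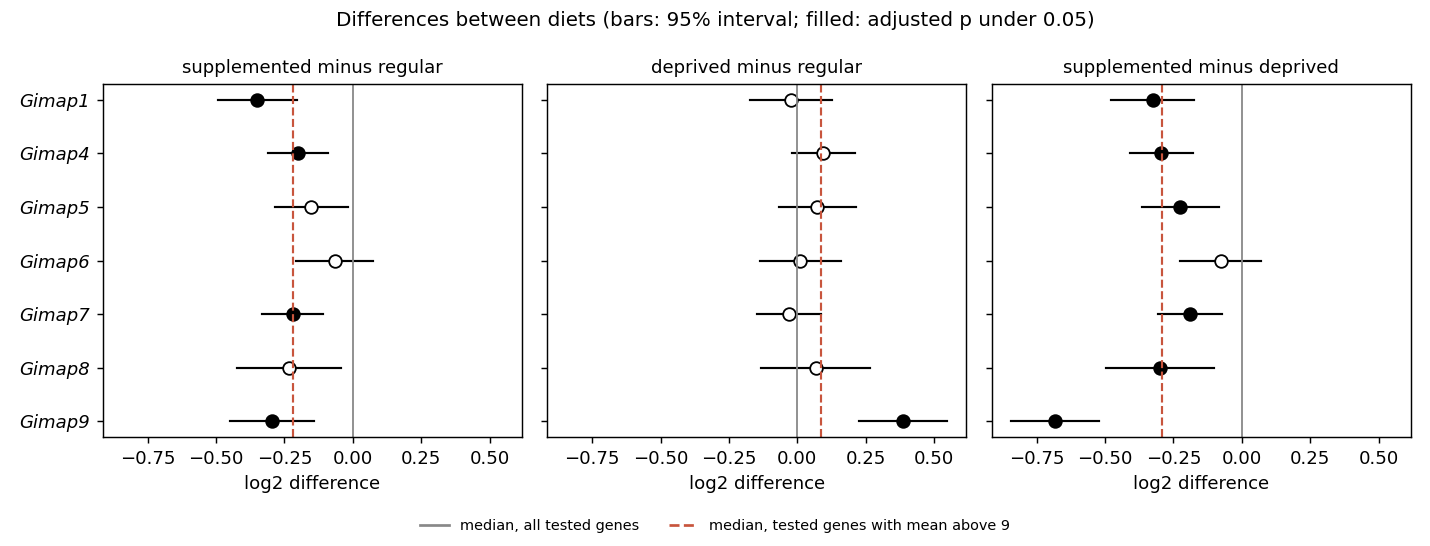
Difference of mean log2 levels (horizontal axis) for each GIMAP gene in the 3 comparisons of diets; points are estimates of the limma model, bars their 95% intervals, filled points passed at an adjusted p below 0.05, and lines give the median of all tested genes and of the tested genes with a mean level above 9. In the first panel most members lie around the second line at -0.22, and in the middle panel Gimap9 alone is away from both lines, at 0.39.

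Whether the members differ from each other in their response was tested within arrays. For each of the 21 pairs the difference between the 2 genes on the same array was compared between diets with a two-sided exact permutation test, and p-values were adjusted over all 63 tests. For deprived against regular diet 7 pairs passed, among them all 6 pairs that hold Gimap9, each at the smallest p these group sizes allow (exact permutation p = 0.00216, adjusted p = 0.0136). Gimap9 exceeded Gimap1 there in its change by 0.41 on the log2 scale, Gimap8, its neighbour on the chromosome, by 0.32 and Gimap4, the neighbour on the other side, by 0.29. The seventh pair was Gimap4 with Gimap7 (0.12, exact permutation p = 0.00649, adjusted p = 0.0341).

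For supplemented against deprived diet 6 pairs passed, 5 of them with Gimap9. Gimap1 and Gimap9 did not pass there (exact permutation p = 0.0216, adjusted p = 0.0758), and Gimap1 with Gimap6 did (-0.25, exact permutation p = 0.00866, adjusted p = 0.042). For supplemented against regular diet 0 of 21 pairs passed (6 at an unadjusted exact permutation p under 0.05), so a different response of any member to supplementation was not shown. That count became 2 without supplemented replicate 3 (both pairs with Gimap9), 2 without supplemented replicate 4, 2 without regular replicate 1 and 1 without supplemented replicate 5.

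Levels of most members went with array spread also among arrays of the same diet. With the mean of each diet removed, Gimap9 correlated with array spread at r = 0.80 (rho = 0.80, permutation adjusted p = 0.00164 and 0.00252 over the 7 members, 17 arrays), Gimap5 at r = 0.80 (rho = 0.74) and Gimap6 at r = 0.74 (rho = 0.65). Gimap8 (r = 0.68, rho = 0.70), Gimap7 (r = 0.64, rho = 0.72) and Gimap4 (r = 0.60, rho = 0.53) followed, with adjusted permutation p of 0.0215, 0.0215 and 0.0322 for r and 0.0168, 0.0112 and 0.056 for rho, so that Gimap4 did not pass by rho. Gimap1 did not pass (r = 0.038, rho = 0.18, adjusted permutation p = 0.907). Without the 2 arrays farthest in spread, supplemented replicate 5 and regular replicate 1, r was 0.73 for Gimap9, 0.72 for Gimap5 and 0.47 for Gimap4. The r of Gimap1 includes deprived replicate 3, which at 9.39 lay far from the other deprived arrays. These correlations are within diets and do not tell what array spread adds to a difference between diets. How many of all tested genes, or of genes as bright as the members, correlate with array spread in this way was not counted.

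**Figure D3:**
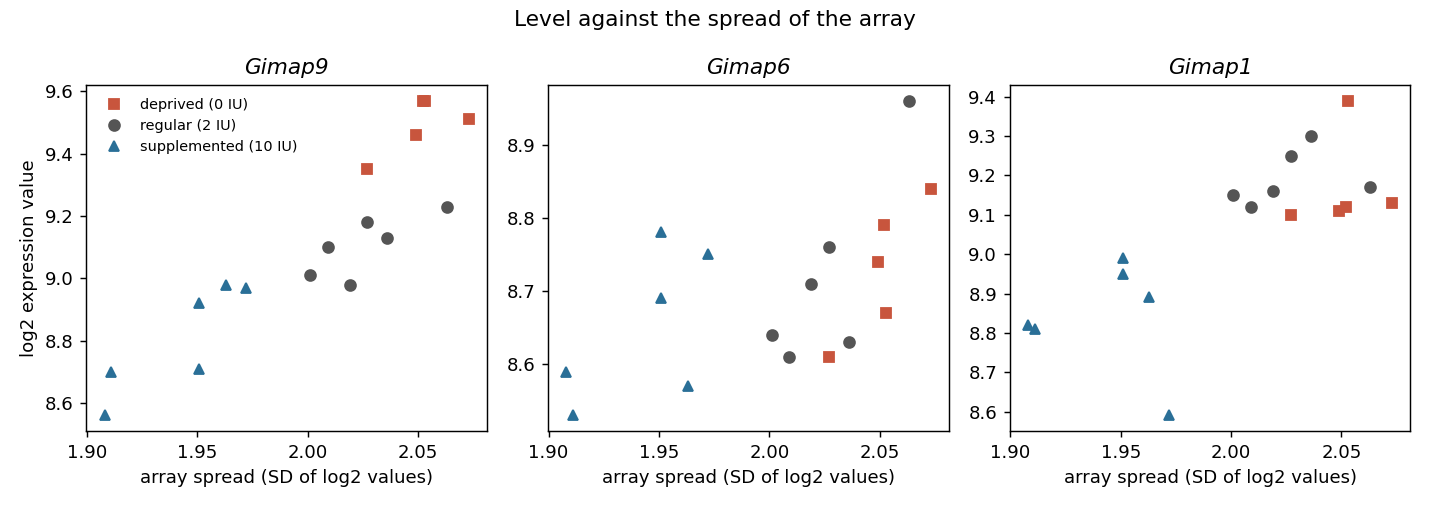
Log2 level of Gimap9, Gimap6 and Gimap1 (vertical axes) against array spread, the SD of all log2 values of the array (horizontal axis), 1 point per array, with diets by colour and shape. Levels of Gimap9 and Gimap6 increase with spread within diets (r = 0.80 and 0.74 after removing diet means), those of Gimap1 do not (r = 0.038), and at a spread of 2.027 Gimap9 reads 9.35 on a deprived and 9.18 on a regular array.

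Supplemented arrays do not overlap the others in spread, so diet and array spread cannot be told apart there. With array spread as a covariate 0 members passed in any comparison in limma (2 for supplemented against regular diet, 1 in each other comparison at an unadjusted p under 0.05), and 0 of the 10879 genes passed between supplemented and regular diet (1192 unadjusted). Gimap1 kept its size with that covariate, at -0.33 against the regular diet (adjusted p = 0.37) and -0.31 against the deprived diet (adjusted p = 0.51), while against the regular diet Gimap4 was at -0.062, Gimap7 at -0.064 and Gimap9 at 0.081. Deprived and regular arrays do overlap in spread. There Gimap9 was higher by 0.27 with the covariate (adjusted p = 0.054). After a further quantile normalization, which gives every array the same spread, 0 members passed between supplemented and regular diet in limma (2 at an unadjusted p under 0.05), with Gimap1 at -0.19 (adjusted p = 0.0524), Gimap9 at -0.14 (adjusted p = 0.105), Gimap7 at -0.036 (adjusted p = 0.627) and Gimap4 at -0.028 (adjusted p = 0.686). Of 26 other named genes that passed in that comparison, many of them picked for a small p there, 18 still passed in the same direction. Over all tested genes 2777 passed after quantile normalization, against 3661 in the reported setting. Between supplemented and deprived diet 1 member, Gimap9, passed after quantile normalization (-0.45, adjusted p = 4.66e-05), and its rise under deprivation passed as well (0.31, adjusted p = 0.0387). That rise lost the threshold without deprived replicate 6 (0.37, adjusted p = 0.0667) or regular replicate 6 (0.36, adjusted p = 0.0532).

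**Figure D4:**
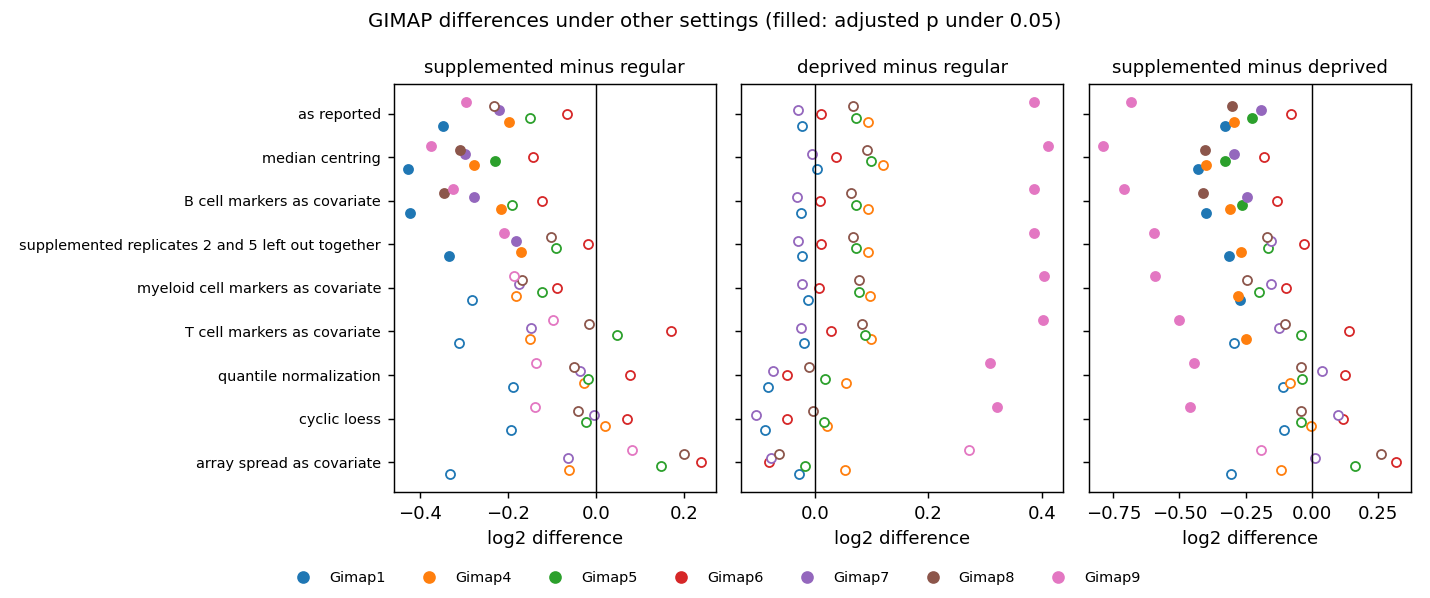
Log2 difference of each GIMAP gene (colours) in the 3 comparisons under the reported setting and 8 others (rows); filled points have an adjusted p below 0.05. In the first panel none is filled from the myeloid covariate downwards, although Gimap1 is still at -0.33 with array spread as a covariate, while Gimap9 in the middle panel stays between 0.27 and 0.41.

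Marker genes of several cell types were set beside the members. Of 15 T cell markers 14 were tested, with 5 lower, 0 higher and 9 not passing on the supplemented against the regular diet. Of all tested genes 22.9% passed there as lower and 10.8% as higher. Cd4, the gene of the sorted protein, fell by 0.59 (SE 0.11, adjusted p = 0.0003), the receptor subunit Cd3d by 0.35 (SE 0.06, adjusted p = 9.1e-05) and the proximal kinase Lck by 0.43 (SE 0.07, adjusted p = 0.00012). The mean log2 level of the list was 9.65 to 9.86 on supplemented, 9.89 to 10.06 on regular and 9.84 to 9.99 on deprived arrays. Supplemented and regular arrays did not overlap in that mean, so diet and this covariate cannot be told apart there. With the T cell mean as a covariate 0 members passed for supplemented against regular diet in limma (1 at an unadjusted p under 0.05). Over all tested genes 403 passed then, against 3661 without the covariate, and 2 of 26 other named genes kept their call. Gimap1 was at -0.31, Gimap4 at -0.15, Gimap7 at -0.15 and Gimap9 at -0.099. Gimap9 kept its rise under deprivation with that covariate (0.40, limma adjusted p = 0.0051).

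Markers of other cells were counted in the same way, beside 10.8% of all tested genes higher and 22.9% lower on the supplemented diet. Of 12 B cell markers 7 were tested and 5 of them were higher on the supplemented diet. The list mean was 6.20 to 6.63, against 6.00 to 6.39 on regular and 6.09 to 6.31 on deprived arrays. Cd22 went the other way without passing (-0.49, limma adjusted p = 0.07), and was lower against the deprived diet (-0.59, limma adjusted p = 0.032). The calls of Blnk and Ebf1 were kept in 22 and 23 of 32 other settings, and lost with quantile normalization, cyclic loess and median centring among others. Ms4a1 and Fcer2 were below the filter on dim genes. Of 16 myeloid markers 11 were tested and 2 were higher, Tyrobp (0.32, SE 0.08) and C1qb (0.25, SE 0.09), with a list mean of 6.28 to 6.36 on supplemented, 6.14 to 6.27 on regular and 6.12 to 6.32 on deprived arrays. The call of C1qb was lost in 14 of 33 other settings, among them quantile normalization and leaving out regular replicate 1, 3 or 4 or supplemented replicate 2, 4 or 5. With the B cell mean as a covariate the 4 calls of members were kept and Gimap8 passed too (-0.35, limma adjusted p = 0.0184). Over all tested genes 3614 passed then, against 3661 without a covariate. With the myeloid mean as a covariate 0 members passed (3 at an unadjusted limma p under 0.05), and 813 of all tested genes did. Gimap1 was then at -0.28, Gimap4 at -0.18, Gimap7 at -0.18 and Gimap9 at -0.19. Of 12 CD8 T and NK cell markers 8 were tested, with 1 lower and 1 higher, and of 14 stromal and endothelial markers 10, with 1 lower (Pecam1, which T cells can also express) and 1 higher (Col1a1). The T cell list is bright and its mean fell, while the B cell and myeloid lists are dim and their means rose. Bright and dim genes differed in direction across the arrays as given above. Whether the markers reflect the makeup of the sort was not tested. The myeloid mean, like the T cell mean, did not overlap between supplemented and regular arrays, so diet and that covariate cannot be told apart there. The part of these cells in the GIMAP levels was not tested.

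Other genes of lymphocyte survival were taken from a fixed list of 24, all tested. On the supplemented against the regular diet 7 passed as lower and 1 as higher, 16 did not pass, and the median was -0.11. Of all tested genes 22.9% passed as lower and 10.8% as higher in that comparison. Signalling from the interleukin 7 receptor, which keeps resting T cells alive, was represented by the kinase Jak1 (-0.31, SE 0.06, adjusted p = 0.00057) and the transcription factor Stat5b (-0.45, SE 0.08, adjusted p = 0.00017), both lower, and by the receptor gene Il7r itself, which did not pass (0.02, SE 0.06, adjusted p = 0.76). The other genes of that pathway on the list, named here after their values were seen, did not pass: the receptor subunit Il2rg was at -0.0026, the kinase Jak3 at -0.025 and Stat5a at -0.025. Among Bcl2 family genes, the anti-apoptotic Bcl2 (-0.32, SE 0.09, adjusted p = 0.013) and Bcl2a1 (-0.58, SE 0.11, adjusted p = 0.00029) and the pro-apoptotic Pmaip1 (-0.37, SE 0.10, adjusted p = 0.0055) fell. Of the pro-apoptotic Bak1 and Bok, also named after their values were seen, Bak1 fell by 0.24 (SE 0.07, adjusted p = 0.018) and Bok was the gene of the list that rose (0.22, SE 0.06, adjusted p = 0.0097). Bcl2l1 (0.02, adjusted p = 0.85), Mcl1 (-0.27, adjusted p = 0.06) and Bax (-0.15, adjusted p = 0.069) did not pass, and neither did the kinase gene Gsk3b (-0.11, adjusted p = 0.17), whose product has been linked to Gimap5 in T cells. Jak1 and Bcl2 did not pass after quantile normalization, and Bcl2 also not without supplemented replicates 2 and 5.

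Under deprivation 1 of the 24 survival genes was higher, Il7r (0.24, SE 0.06, adjusted p = 0.049), and 23 did not pass. That call was lost in 20 of 33 other settings, among them the removal of any of the 5 deprived or 6 regular arrays. Between supplemented and deprived diets 9 survival genes were lower, 0 higher and 15 did not pass. Of all tested genes 28.6% passed there as lower and 18.6% as higher. Under deprivation 1.49% of all tested genes passed as higher and 0.184% as lower.

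Since the family is studied mostly in resting lymphocytes, a list of 20 naive and quiescent T cell genes was set beside them, of which 18 were tested. On the supplemented against the regular diet 6 were lower, 1 higher and 11 did not pass (median -0.13). Of all tested genes 22.9% passed there as lower and 10.8% as higher. The quiescence factor Klf2 fell by 0.35 (SE 0.10, adjusted p = 0.01), the egress receptor S1pr1 by 0.45 (SE 0.09, adjusted p = 0.00052), the antiproliferative gene Tob1 by 0.50 (SE 0.09, adjusted p = 0.00036) and Slfn2, named for growth arrest, by 0.35 (SE 0.08, adjusted p = 0.0014). The call of Slfn2 was lost with cyclic loess and with quantile normalization. Klf2, S1pr1, Tob1 and Slfn2 were the genes of the list with the smallest p. The gene that rose, named after its value was seen, was Foxp1 (0.18, SE 0.07, adjusted p = 0.045). Ccr7 (-0.06), Lef1 (-0.10), Tcf7 (-0.17) and Foxo1 (0.09), also named after their values were seen, did not pass. Tob1 rose by 0.41 under deprivation (SE 0.10, adjusted p = 0.037), the only gene of this list to pass there, and so had the same order of diets as Gimap9. Its rise did not pass after quantile normalization and was lost in 13 of 33 other settings.

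The genes that flank the cluster on chromosome 4 were read beside it. The 4 named genes before Gimap8 are Lrrc61, Rarres2, Repin1 and Zfp775, and the 4 after Gimap5 are Tmem176b, Tmem176a, Aoc1 and Doxl1. Of the 7 that were bright enough to be tested, on the supplemented against the regular diet 0 fell, 2 rose, Lrrc61 (0.31, SE 0.08, adjusted p = 0.0066) and Rarres2 (0.27, SE 0.07, adjusted p = 0.0046), and 5 did not pass. Of all tested genes 22.9% passed as lower and 10.8% as higher in that comparison. Tmem176a was at -0.16 there (adjusted p = 0.29) and fell by 0.31 on the supplemented against the deprived diet (SE 0.12, adjusted p = 0.041). This call of Tmem176a was kept in 20 of 32 other settings. Leaving out deprived replicate 2, 3 or 5 or supplemented replicate 2, 4 or 6 was among those where it was lost. Aoc1 was below the filter. Rarres2, which encodes the chemoattractant chemerin, is dim here (mean log2 level 5.96) and went opposite to Gimap9 in both comparisons, with a fall of 0.36 under deprivation (SE 0.07, adjusted p = 0.017). The fall of Rarres2 was lost without deprived replicate 4 and with array spread as a covariate. The flanking genes that were tested are dim, with mean log2 levels of 5.63 to 6.69, and bright and dim genes differed in direction across the arrays as given above.

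**Figure D5:**
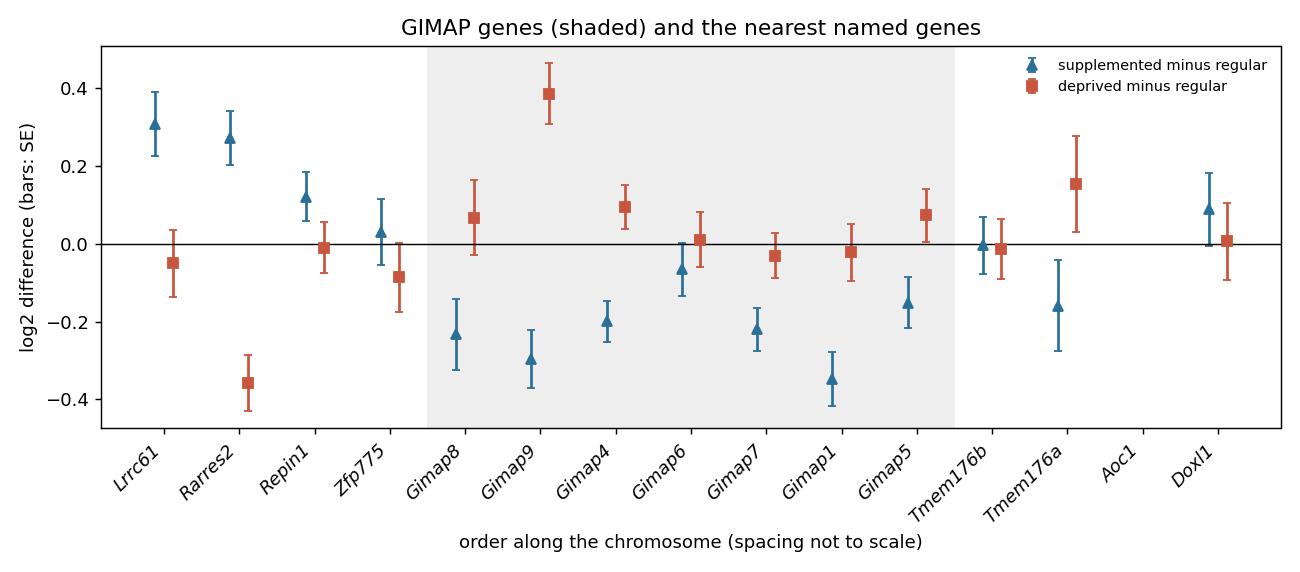
Log2 difference (vertical axis, bars give SE) of the GIMAP genes (shaded) and the nearest named genes in their order along chromosome 4 (spacing not to scale), for supplemented minus regular and deprived minus regular diet. All 7 GIMAP genes are below 0 for supplementation, from -0.35 to -0.07, next to flanking genes at -0.16 to 0.31, and Gimap9 and Rarres2 stand out under deprivation at 0.39 and -0.36.

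Among arrays of the same diet r was positive in 20 of 21 pairs of members, with a median of 0.49 (rho 0.45) and a range of -0.10 to 0.68 over 17 arrays. Some pairs lay near 0, such as Gimap1 with Gimap8 (r = 0.024) and Gimap1 with Gimap9 (r = 0.096), and Gimap5 with Gimap7 was the highest. How often r is positive among pairs of other genes was not counted. Members read on the same array share the spread of that array, and the mean of the scaled members correlated with array spread at r = 0.88 (rho = 0.81). Within diets the genes whose deviations were most like that mean, out of 10872 others, were Sem1 (r = 0.91, rho = 0.94), Gpi (0.91 and 0.91), Pfdn6 (0.90 and 0.83), Hnrnpul1 (0.90 and 0.86) and Mrps23 (0.89 and 0.83). Those most opposite to it were Or7r1 (-0.92 and -0.89), Avil (-0.91 and -0.93), Gcm2 (-0.90 and -0.88), Celf5 (-0.88 and -0.82) and Caskin1 (-0.88 and -0.88). Each of the first 5 correlated with array spread at r = 0.81 or above. Replicates lay close together for some members: the SD within diets was 0.063 for Gimap4 and 0.067 for Gimap7, and 0.17 for Gimap8, the most variable of the 7.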

How the data were processed

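The values are the authors' deposited log2 expression values of 17 Affymetrix whole-transcript arrays, 1 per transcript cluster and array. RMA and Partek 6.0 are named in the submitters' processing notes; for probe file, build and filters the sources used here give nothing, and the log base was read from the range of values. Each array took 250 ng of RNA, per the labels' protocols. The settings of RMA are not described, and small differences can depend on them. Of 29214 clusters, 15310 had 1 gene symbol, 323 several and 13581 were not listed; symbols were updated through Entrez identifiers for 15279 with the RefSeq table for GRCr8. Each gene was represented by its cluster with the highest mean, and the lowest 25% of genes (means below 5.321) were left out. All 3 diets entered 1 linear model (limma 3.58.1, R 4.3.3; 14 residual and 8.19 prior degrees of freedom), called where the Benjamini-Hochberg p over all genes was under 0.05. The code was tested on simulated data. Correlations with array spread used 100000 permutations within diets. The number of arrays limits the precision. No batch or scan date was at hand.

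Members and lists were chosen with earlier results of these data known. Named were all members, up to 4 genes of each list with the smallest p, a few fixed genes, flanking genes and the 5 most and least alike. Pair tests and motifs were added after the values were seen. Alternatives were other normalizations and filters, marker means or array spread as covariates, a block for replicate number, weights for arrays, 2 diets only, and arrays left out.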

Additional observations from a re-analysis of the deposited data

Results flagged for a closer look

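Gimap1 on deprived replicate 3 was at 9.391, against a mean of 9.113 on the other 4 deprived arrays, a gap of 0.905 of the range of that diet. This was the only one of 24 groups checked (7 genes and array spread on 3 diets) with a gap beyond the cut-off used. About 1 in 20 groups is expected to exceed that cut-off by chance. How often a gap as large as 0.905 is expected was not computed. Without that array Gimap1 stayed lower on the supplemented than on the deprived diet (-0.27).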

How the results depend on the processing

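For supplemented minus regular diet the count of 4 became 0 after quantile normalization, cyclic loess and with array spread, T cell or myeloid markers as covariate (2, 2, 2, 1 and 3 at an unadjusted limma p under 0.05), and ran from 4 to 6 with each array left out. Over all tested genes the count of 3661 became 2777, 2690, 0, 403 and 813 in the settings named, in that order. For supplemented minus deprived the count of 6 became 1 after quantile normalization and cyclic loess, 0 with array spread, 2 with T cell markers, 3 with myeloid markers and 3 without supplemented replicates 2 and 5, and stayed at 6 with each array left out. The count of 5132 over all tested genes became 3567, 3533, 0, 1522, 2753 and 3660 in that order. For deprived minus regular the count of 1 became 0 with array spread and ran from 0 to 1 with each array left out. With array spread the count over all tested genes went from 182 to 68. In the F test the count of 6 became 1 after quantile normalization, cyclic loess and with T cell markers, 0 with array spread and 2 with myeloid markers, and ran from 4 to 6 with each array left out. The F test count of 4927 over all tested genes became 3603, 3604, 1528, 72 and 2251 in that order. Pairs passing ran from 0 to 2, 6 to 9 and 4 to 6 in the 3 comparisons with each array left out. Cyclic loess gave 3 for supplemented minus regular. Pair tests were repeated only after quantile normalization, after cyclic loess and with arrays left out. The 6 pairs with Gimap9, which all share that gene, passed under deprivation in each of these. Pairs were not tested with array spread or marker means as a covariate. The cause of these changes in counts was not tested. The replicate numbers did not pair the arrays (r of same-numbered deviations -0.207 to 0.195, above 0.1 in 4 of 16); with the replicate block 5, 1 and 6 members passed, against 4, 1 and 6.

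Signs turned as follows, none of these values passing. With array spread as covariate: Gimap5 (0.15), Gimap6 (0.24), Gimap8 (0.20) and Gimap9 (0.081) for supplemented minus regular, Gimap5 (0.16), Gimap6 (0.32), Gimap7 (0.013) and Gimap8 (0.26) for supplemented minus deprived, Gimap5 (-0.017), Gimap6 (-0.081) and Gimap8 (-0.063) for deprived minus regular. With T cell markers: Gimap5 (0.046) and Gimap6 (0.17) for supplemented minus regular, Gimap6 (0.14) for supplemented minus deprived. After quantile normalization: Gimap6 (0.077, 0.13 and -0.050 in the same order), Gimap7 (0.037 for supplemented minus deprived) and Gimap8 (-0.010 for deprived minus regular). After cyclic loess: Gimap4 (0.019) and Gimap6 (0.070) for supplemented minus regular, Gimap6 (0.12) and Gimap7 (0.098) for supplemented minus deprived, Gimap6 (-0.049) and Gimap8 (-0.0034) for deprived minus regular. With median centring Gimap1 was at 0.0030 for deprived minus regular, and with each array left out Gimap6 ran there from -0.018 to 0.060.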
